A study of Oryza sativa with 45 samples.

Results

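At 4 days underwater, 156 of 26180 tested genes (0.596%) differed between seedlings of the IR64(AG1) line and IR64, with 82 higher (0.313%) and 74 lower (0.283%) in IR64(AG1). Among the abundant genes that rose in IR64(AG1) were those annotated as a beta-expansin, a calmodulin-like protein, D-3-phosphoglycerate dehydrogenase and branched-chain-amino-acid aminotransferase 3. Among those that fell were genes annotated as a calmodulin-binding protein, a calmodulin-dependent kinase phosphatase and a metal-nicotianamine transporter. A stretch at the start of chromosome 2 held 33 of the 156 genes. The pyruvate decarboxylase and glycolysis genes that could be identified did not pass the test.

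The comparison set the 3 libraries of IR64(AG1) harvested at 4 d against the 3 libraries of IR64 harvested at 4 d, which are 6 of the 45 libraries of the series. IR64(AG1) is an indica rice line of IR64 background that carries the ANAEROBIC GERMINATION 1 locus on chromosome 9 from the japonica landrace Khao Hlan On, and IR64 is the recipient variety without it. Neither group carries the submergence tolerance locus SUB1A-1, and all seeds were sown dry in soil and covered with water. The labels call the tissue coleoptile, whereas the study's methods describe embryo, coleoptile and shoot pooled from many seedlings. The other libraries used here are IR64(AG1) and IR64 at 2, 8 and 14 d, and, at 4 d, 2 libraries of IR64(AG1,SUB1), which carries both loci, and 3 of IR64(SUB1), which carries SUB1 alone. IR64(AG1) is 1 introgression line, so that any other donor segment it holds and the AG1 locus cannot be told apart in these libraries.

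Rice is unusual among cereals in that its seed can germinate without oxygen. Under water the coleoptile, the sheath around the first leaf, elongates towards the surface while root and leaf growth is held back, fed by starch broken down to sugar and fermented to ethanol. AG1 contains TPP7, a trehalose-6-phosphate phosphatase gene that IR64 lacks. Trehalose-6-phosphate reports sugar supply to the plant, and its removal by TPP7 is thought to keep sugar flowing from the seed to the growing coleoptile. TPP7 could not be paired with an identifier of the count table from the sources used here. Whether a gene without annotation given below is TPP7 was therefore not established.

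The total count per library was between 16739586 and 21856515 in IR64(AG1) and between 14183209 and 21601743 in IR64. SUB1A-1 had 0 counts in all 6 libraries. Replicate pairs differed by 5.24 to 10.3 times the chi-square expected from counting noise, so no library was a copy of another. The tissue was checked by the summed level of marker genes as CPM, the count of a gene scaled to the total count of its library. Expansins, proteins that loosen the growing wall, summed to 176 to 236 CPM in IR64(AG1) and 127 to 153 CPM in IR64, and 5 genes of the photosystems and their antennae, which mark green leaf, to 7.35 to 10.1 CPM in IR64(AG1) against 6.75 to 9.84 CPM in IR64. The expansin sums of the groups did not overlap, although only 1 of 10 tested expansins was called. The most abundant, EXPA1 (OS04G0228400), averaged 133 CPM in IR64(AG1) and 99.0 CPM in IR64 and was not called (FDR 0.608 by edgeR). Prolamin 7 (OS05G0328800), a seed storage protein, averaged 332 ± 88.6 CPM in IR64(AG1) and 214 ± 26.9 CPM in IR64 (SD, n = 3 each). It was not called (FDR 0.766 by edgeR). The sums of 12 seed storage genes overlapped, at 628 to 861 CPM in IR64(AG1) and 589 to 656 CPM in IR64. Overlap was also found for the sums of genes taken by words for amylases, oleosins, late embryogenesis abundant proteins, and histones with cyclins. These words took genes of other kinds, so the sums mark the tissues only loosely. The most abundant gene of the late embryogenesis group was described as a catalase (OS03G0131200, 210 CPM in IR64(AG1) and 217 CPM in IR64). That of the cyclin group was a cyclin-like F-box gene (OS01G0183800). In bulk tissue, fewer cells of a type and less RNA per cell cannot be told apart, and the part of tissue makeup in the results was not tested.

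A gene was called changed when edgeR's quasi-likelihood test gave a Benjamini-Hochberg adjusted p (FDR) under 0.05 over all tested genes and the log2 fold change was above 1 or below -1. At an unadjusted p under 0.05 there were 2536 genes, and 244 had an FDR under 0.05 at any size of change. The 3 IR64(AG1) and 3 IR64 libraries did not overlap in CPM for 151 of the 156 called genes, against 15.8% of all tested genes. They were 79 of the genes that rose and 72 of those that fell, against 8.31% of all tested genes with all IR64(AG1) libraries higher and 7.48% with all lower. Lack of overlap was a condition for choosing many of the genes named below, so it is not further evidence for them. Many of the called genes were of low abundance. The mean of the higher group was under 5 CPM for 44 of the 82 genes that rose and for 36 of the 74 that fell, and over 50 CPM for only 5 and 3 of them. IR64 had no count in any library for 10 of the 82, and IR64(AG1) had none for 18 of the 74. Without the first IR64 library the number of called genes was 99, with 45 higher.

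**Figure D1:**
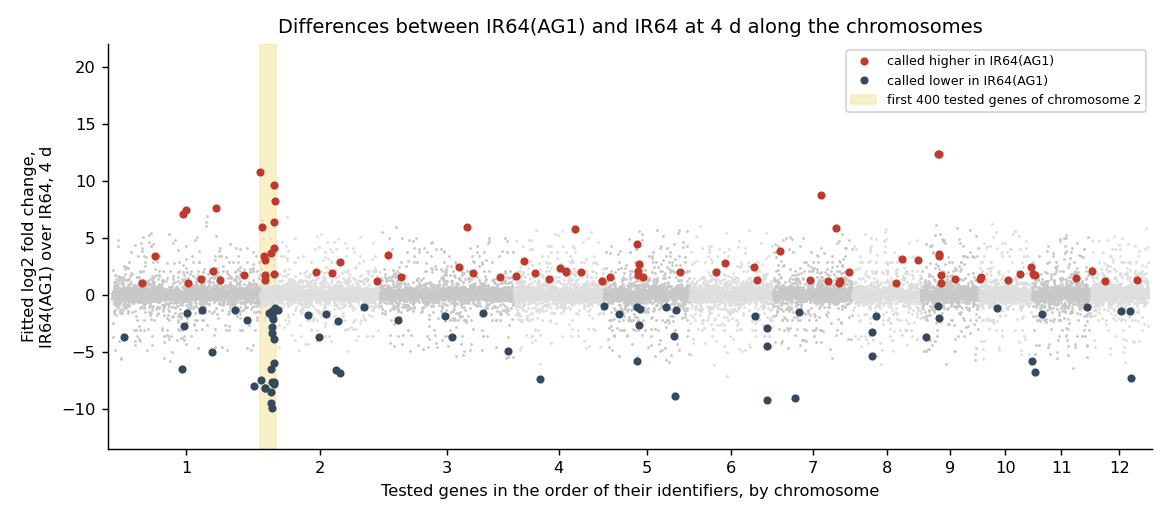
The log2 fold change of IR64(AG1) over IR64 at 4 d (vertical axis) is plotted for each tested gene in the order of identifiers along the 12 chromosomes (horizontal axis), with called genes in colour and the first 400 tested genes of chromosome 2 shaded. The shaded stretch holds 33 called genes, 12 higher and 21 lower. Values of genes that one line does not express are fitted and have no exact size.

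Called genes lay on every chromosome but were dense in a few places. In windows of 100 neighbouring tested genes, 173 of 268 windows held no called gene, 72 held 1, 14 held 2 and 9 held 3 or more. The first 4 windows of chromosome 2 held 4, 5, 10 and 14 called genes, and 1 window each on chromosomes 5 and 9 held 7. Among the first 400 tested genes of chromosome 2, 33 were called (8.25%), against 123 of the 25780 other tested genes (0.477%). The limit of 400 genes was set after the windows were seen, and the counts are a description. Leaving out any 1 of the 6 libraries left 24 to 28 called genes in this stretch.

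Several genes of the chromosome 2 stretch were counted in only 1 of the lines. The leucine-rich repeat gene OS02G0157000 had 8.79, 10.51 and 7.02 CPM in IR64(AG1), against 0.0537, 0 and 0 CPM in IR64. That was 434 counts in IR64(AG1) and 1 count in IR64, a ratio of 377 (95% exact interval 67.3 to 14930, counting error only). A protein kinase gene, OS02G0154200, had 5.46, 4.06 and 5.36 CPM in IR64(AG1) and 0 in each IR64 library, at least 73.3-fold higher against a floor of 3 counts over the group. The line difference ran the other way for OS02G0118950, a gene of the nucleotide-binding, leucine-rich repeat (NBS-LRR) class of disease resistance proteins. It had 0.0574, 0 and 0 CPM in IR64(AG1) against 7.36, 8.46 and 6.92 CPM in IR64. No count was found in any IR64(AG1) library for the sialyltransferase-like OS02G0119000, at least 31.1-fold lower, or for OS02G0156300, annotated as similar to the receptor-like kinase BRI1-like 2, at least 21.5-fold lower. NBS-LRR and leucine-rich repeat genes have near-identical copies among which reads can be split, and reads of an indica line were aligned to the japonica Nipponbare genome, so their levels are uncertain.

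Other genes of the same stretch were counted in both lines at different levels. OS02G0145000, annotated as a calmodulin-binding protein, had 7.52, 6.66 and 6.33 CPM in IR64(AG1), against 49.0, 48.5 and 47.9 CPM in IR64. The IR64(AG1) libraries lay far below all IR64 libraries, with a log2 fold change of -2.82 ± 0.21 (SE, FDR 2.98e-12 by edgeR's quasi-likelihood test). OS02G0151800, similar to a phosphatase that removes phosphate from calcium/calmodulin-dependent protein kinase, had 40.6, 39.6 and 37.1 CPM in IR64(AG1), against 109, 99.2 and 114 CPM in IR64 (log2 fold change -1.46 ± 0.10, SE). TOM22 (OS02G0131600), a receptor for protein import into mitochondria, had 4.65, 4.69 and 3.16 CPM in IR64(AG1) and 15.1, 11.2 and 10.9 CPM in IR64 (log2 fold change -1.58 ± 0.27, SE). All 3 genes fell in IR64(AG1), and lack of overlap was a condition of their choice. Catalase isozyme A (OS02G0115700), which breaks down hydrogen peroxide, rose, with 13.4, 17.4 and 21.1 CPM in IR64(AG1) against 1.45, 0.923 and 2.47 CPM in IR64 (log2 fold change 3.44 ± 0.51, SE). A gene similar to cycloartenol synthase (OS02G0140200), an enzyme of sterol synthesis in plants, had 6.49, 4.76 and 7.45 CPM in IR64(AG1) and 0.591, 0.231 and 0.576 CPM in IR64 (log2 fold change 3.70 ± 0.36, SE).

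On chromosome 9, where AG1 lies, 2 genes with no annotation in the sources used here had no count in IR64. OS09G0369400 had 29.8, 32.4 and 33.6 CPM in IR64(AG1), at least 466-fold higher, and OS09G0373800 had 39.6, 28.4 and 32.9 CPM, at least 495-fold higher. Near them, OS09G0374900, also not annotated, had 44.4, 53.9 and 67.0 CPM in IR64(AG1) against 180, 234 and 271 CPM in IR64 (log2 fold change -2.05 ± 0.25, SE). OS09G0369400 and OS09G0373800 parted in the lines that also carry SUB1. OS09G0369400 had 31.9 and 38.0 CPM in IR64(AG1,SUB1) and 0 in all 3 IR64(SUB1) libraries. The study reports TPP7 transcripts in both lines with AG1 and none detectable in IR64 or IR64(SUB1). OS09G0369400 had that pattern at 4 d, but no source used here pairs it with TPP7. OS09G0373800 had 0 and 0.0506 CPM in IR64(AG1,SUB1) and 0.0520, 0 and 0 CPM in IR64(SUB1), so that among the 4 d libraries only those of IR64(AG1) held more than 1 count.

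Outside these stretches, several genes of growth and primary metabolism were higher in IR64(AG1). The beta-expansin gene EXPB11 (OS02G0658800), of a family that loosens grass cell walls, had 12.3, 13.03 and 15.1 CPM in IR64(AG1), against 1.29, 2.92 and 1.56 CPM in IR64. Every IR64(AG1) library exceeded every IR64 library, and the log2 fold change was 2.84 ± 0.34 (SE, FDR 4.14e-07 by edgeR's quasi-likelihood test). OS01G0810300, a calmodulin-like gene of the calcium-binding family, had 45.3, 54.4 and 46.2 CPM in IR64(AG1), against 18.2, 20.4 and 20.2 CPM in IR64 (log2 fold change 1.31 ± 0.15, SE). OS08G0447000, similar to D-3-phosphoglycerate dehydrogenase, which takes a glycolytic intermediate into serine synthesis, had 143, 146 and 169 CPM in IR64(AG1), against 76.8, 66.0 and 78.0 CPM in IR64. Its log2 fold change of 1.05 ± 0.12 (SE) lay near the threshold of 1 and was 0.97 without the third IR64(AG1) library and 0.98 without the second IR64 library. OS01G0654100, similar to CTP synthase, which makes the nucleotide CTP from UTP, had 37.8, 36.6 and 45.4 CPM in IR64(AG1) and 19.0, 20.1 and 18.4 CPM in IR64 (log2 fold change 1.06 ± 0.15, SE, and 0.96 without the third IR64(AG1) library). The libraries of the lines did not overlap for any of these genes, a condition by which they were chosen.

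Branched-chain-amino-acid aminotransferase 3 (OS05G0558400), which acts in the synthesis and breakdown of leucine, isoleucine and valine, had 76.5, 76.1 and 76.1 CPM in IR64(AG1), against 19.4, 20.8 and 15.2 CPM in IR64. The spread within IR64(AG1) was very small beside the difference, with a log2 fold change of 2.04 ± 0.12 (SE, FDR 1.04e-15 by edgeR's quasi-likelihood test). Among genes of transport and surfaces, a plasma membrane intrinsic protein (OS02G0823100), of the family of water channels, had 52.1, 45.9 and 51.9 CPM in IR64(AG1) and 20.3, 19.8 and 24.9 CPM in IR64. Its log2 fold change was 1.21 ± 0.25 (SE, FDR 0.00651 by edgeR), and the FDR was 0.0605 without the first IR64 library and 0.0572 without the second. OS04G0116800, similar to 3-ketoacyl-CoA synthase, which lengthens fatty acids for waxes and membranes, had 14.2, 22.6 and 11.9 CPM in IR64(AG1) and 4.78, 6.00 and 4.45 CPM in IR64 (log2 fold change 1.67 ± 0.29, SE). A haem peroxidase (OS04G0688300) had 76.6, 47.5 and 45.8 CPM in IR64(AG1) and 21.4, 27.6 and 22.6 CPM in IR64, with a log2 fold change of 1.25 ± 0.24 (SE), which was 0.97 with an FDR of 0.0568 by edgeR without the first IR64(AG1) library. A beta-glucanase precursor (OS05G0375400), of enzymes that cut glucans, had 11.2, 22.8 and 12.2 CPM in IR64(AG1) and 5.16, 5.08 and 5.52 CPM in IR64 (log2 fold change 1.54 ± 0.27, SE). These genes rose and were chosen among genes without overlap. For the synthase, the peroxidase and the glucanase, 1 IR64(AG1) library stood above the rest of its group.

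Further genes rose at lower or less even levels. OS04G0605300, a leucine-rich repeat gene, had 11.9, 12.96 and 12.4 CPM in IR64(AG1) and 2.96, 3.61 and 2.88 CPM in IR64 (log2 fold change 1.98 ± 0.25, SE). OS04G0538400, similar to nodulin 21, had 18.0, 22.8 and 23.7 CPM in IR64(AG1) and 6.56, 5.08 and 3.95 CPM in IR64, with an FDR of 0.0156 by edgeR's quasi-likelihood test that exceeded 0.05 on leaving out any of 3 single libraries (up to 0.107). The gene of a DREPP plasma membrane polypeptide (OS01G0233000) had 38.4, 39.8 and 53.5 CPM in IR64(AG1) and 18.6, 21.3 and 22.8 CPM in IR64 (log2 fold change 1.07 ± 0.21, SE, and 0.91 without the third IR64(AG1) library or 0.99 without the first IR64 library). All of them were higher in each IR64(AG1) library than in any IR64 library, as their choice required.

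**Figure D2:**
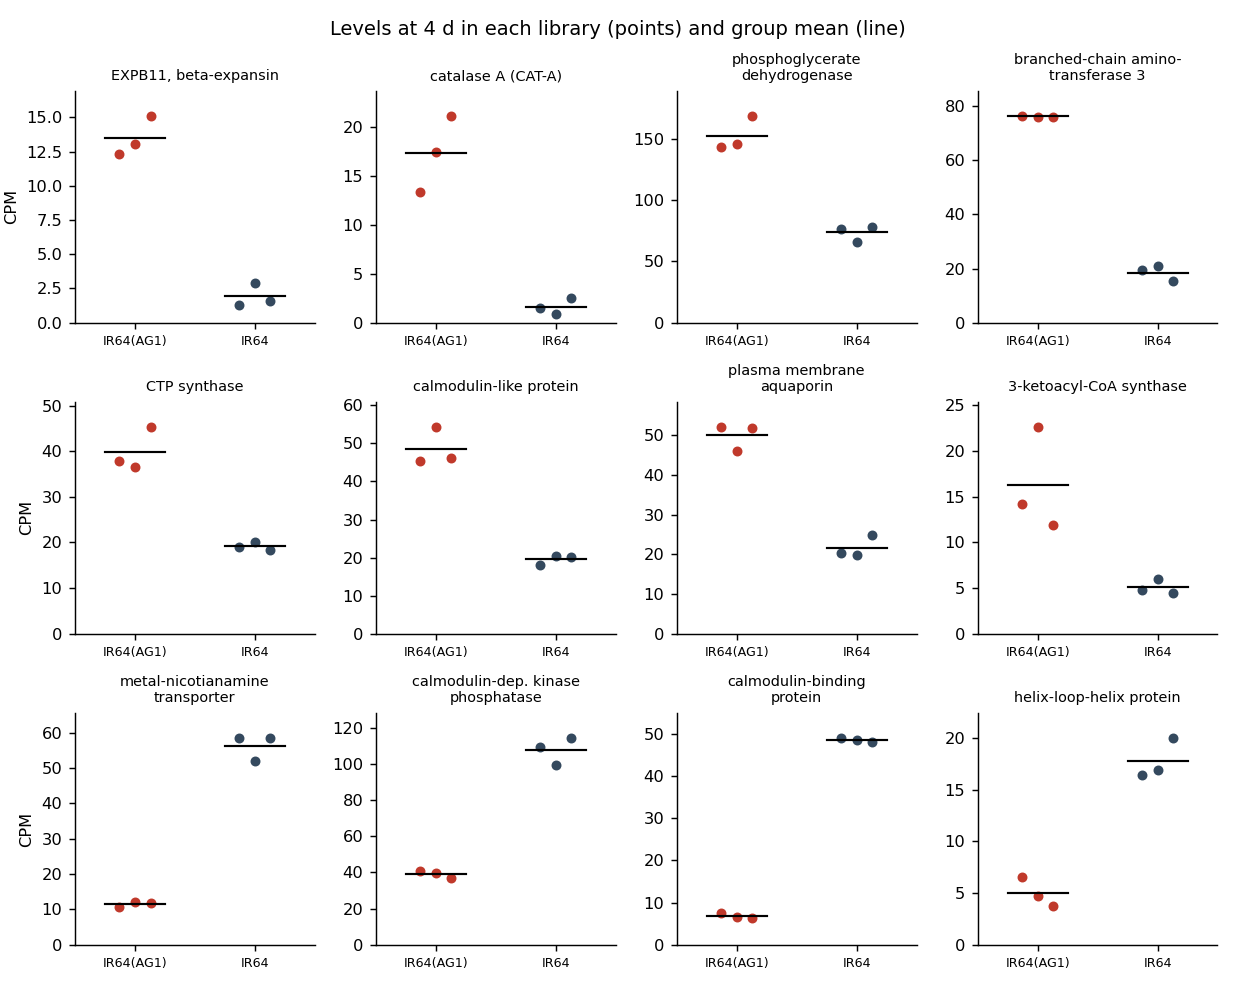
CPM of called genes in the 3 IR64(AG1) and 3 IR64 libraries at 4 d, each point a library and each line a group mean, on linear axes that start at 0. The genes drawn were chosen among called genes without overlap, so the libraries of the lines lie apart for each. OS02G0145000, for example, had 6.33 to 7.52 CPM in IR64(AG1) and 47.9 to 49.0 CPM in IR64.

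Of the genes that fell outside the chromosome 2 stretch, the metal-nicotianamine transporter gene OS02G0649900, of a family that moves iron and manganese within the plant, had 10.7, 12.1 and 11.8 CPM in IR64(AG1), against 58.5, 52.0 and 58.4 CPM in IR64. The libraries of the lines were well separated, and the log2 fold change was -2.28 ± 0.32 (SE, FDR 1.12e-05 by edgeR's quasi-likelihood test). An ankyrin domain gene (OS01G0923600) had 9.24, 7.50 and 8.79 CPM in IR64(AG1) and 41.4, 41.8 and 36.1 CPM in IR64 (log2 fold change -2.22 ± 0.14, SE). A helix-loop-helix DNA-binding gene (OS03G0379300), of a class of transcription factors, had 6.60, 4.69 and 3.75 CPM in IR64(AG1), against 16.4, 16.9 and 20.01 CPM in IR64 (log2 fold change -1.82 ± 0.24, SE). OS03G0736900, similar to a sorghum protein targeted to mitochondria or chloroplasts, had 9.93, 10.3 and 10.7 CPM in IR64(AG1) and 28.5, 36.0 and 31.4 CPM in IR64 (log2 fold change -1.63 ± 0.16, SE). Each of these 4 genes was lower in all IR64(AG1) libraries, as their choice required.

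Further falls were smaller or of scarcer transcripts. OS05G0349500, with a pleckstrin homology domain, which in other proteins binds membrane lipids, had 1.72, 2.52 and 3.22 CPM in IR64(AG1) against 13.2, 15.7 and 18.9 CPM in IR64 (log2 fold change -2.67 ± 0.38, SE). This gene lay in the chromosome 5 window that held 7 called genes. A cytochrome P450 gene (OS05G0101600) had 17.9, 17.4 and 16.4 CPM in IR64(AG1) and 38.0, 35.2 and 31.3 CPM in IR64, with a log2 fold change of -1.02 ± 0.15 (SE), which was -0.98 without the third IR64(AG1) library -0.95 without the first IR64 library and -0.93 under the study's own steps. RCc3 (OS02G0662000), whose rice relatives are known as root genes, had 1 count in IR64(AG1), with 0.0574, 0 and 0 CPM, against 2.203, 2.62 and 4.53 CPM in IR64. A gene similar to 1-aminocyclopropane-1-carboxylate oxidase (OS02G0771600), the enzyme class of the last step of ethylene synthesis, had 7.12, 5.46 and 4.29 CPM in IR64(AG1) and 15.1, 14.0 and 6.42 CPM in IR64. The libraries of this gene overlapped, and its FDR of 0.0266 by edgeR exceeded 0.05 without any 1 of 4 libraries (0.0983 to 0.271). Under the study's steps its log2 fold change was -0.98.

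Gene groups were described by words in the gene descriptions of the study's datasets, which name 3800 genes, 3237 of them tested. These comprise 1941 genes listed without regard to change, which are the first rows of longer tables and lie on chromosome 1, and 1859 from any chromosome that the study listed because they differed among these samples, so the second set is not independent evidence of a difference. The groups are therefore partial, and the words took some genes of other kinds and passed over some members of a family. Of the 3237, 51 were called higher and 51 lower, beside 0.596% called of all tested genes. Of 41 groups, 39 had a tested gene, and 8 had a called one. Among expansins 1 of 10 rose, with a median log2 fold change of 0.44 over the 10, beside 0 for all tested genes. Of genes described by the words heat shock, among them chaperones that help other proteins fold, 1 of 27 rose (median 0.29), and of WRKY transcription factors 1 of 13 rose (median 0). Among 36 cytochromes P450, 1 rose and 1 fell (median 0.28), and among 8 NBS disease resistance genes, 1 rose and 1 fell (median -0.05). One of 23 receptor-like kinases rose (median 0), 1 of 3 genes described by the word aquaporin rose, which was the silicon influx transporter (OS06G0228200) with 2.01, 1.89 and 3.86 CPM in IR64(AG1) against 0.484, 0.461 and 1.15 CPM in IR64, and 1 of 6 genes of ethylene synthesis and response fell (median -0.49). The silicon transporter exceeded an FDR of 0.05 by edgeR without any 1 of 3 libraries (0.0513 to 0.0995), and in the fit of the 11 libraries of 4 d (0.056). The 10 calls in these groups became 5 without the third IR64(AG1) library, and likewise without the first or the second IR64 library.

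Of the groups in which edgeR called no gene, some that bear on growth and sugar use are given. They comprise 9 genes of glycolysis (median log2 fold change 0.01, 2 with an unadjusted p under 0.05 by edgeR), 16 auxin response genes (0.20, 2 with such a p), 20 genes described by the word MYB (0.42, 1 with such a p) and 5 photosystem genes (-0.06, 0 with such a p), and DESeq2 called none of them. Over all groups of 5 or more tested genes without an edgeR call, DESeq2 called 5 genes, 1 of them in the cyclin group. Smaller groups without a call included 3 genes taken by the words for amylases (0.19, 1 with such a p) and 4 sucrose synthases and invertases (0.14, 0 with such a p). Whether these 3 genes encode amylases was not checked. AMY3D, AMY3E and BMY2, the starch breakdown genes that the study follows, were not among them. Other small groups were 3 genes of sugar starvation signalling (-0.22, 0 with such a p) and 4 gibberellin genes (0.54, 1 with such a p). The words for ethanol fermentation took 4 genes, 3 pyruvate decarboxylases and a cinnamyl-alcohol dehydrogenase, with a median of 0.41, 0 with an unadjusted p under 0.05 by edgeR and none called by DESeq2. In fermentation, pyruvate decarboxylase PDC1 (OS05G0469600) averaged 929 ± 58.8 CPM in IR64(AG1) and 946 ± 113 CPM in IR64 (SD, n = 3 each). A glyceraldehyde-3-phosphate dehydrogenase gene of glycolysis (OS02G0601300) averaged 5066 ± 287 CPM in IR64(AG1) and 4772 ± 484 CPM in IR64. For both genes the difference was within the spread of the libraries.

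Of 44 genes that the study names with a locus identifier, 13 could be paired with the count table, and of these only EXPB11 was called at 4 d. EXPA1 (OS04G0228400), an alpha-expansin, averaged 133 ± 20.2 CPM in IR64(AG1) and 99.0 ± 10.6 CPM in IR64 (SD, n = 3 each, log2 fold change 0.43 ± 0.25, SE). The hexose transporter MST4 (OS03G0218400) averaged 78.4 ± 11.3 CPM in IR64(AG1) and 67.1 ± 17.1 CPM in IR64 (log2 fold change 0.22 ± 0.29, SE). MYBS1 (OS01G0524500), a factor in sugar-regulated nutrient mobilization, averaged 1.69 ± 0.18 CPM in IR64(AG1) and 1.22 ± 0.44 CPM in IR64. The chloroplast genes CAB (OS01G0720500), a chlorophyll-binding protein, and GUN4 (OS11G0267000), a regulator of chlorophyll synthesis, had log2 fold changes of 0.57 ± 0.61 and 0.51 ± 0.32 (SE). None of these 5 passed the test, with edgeR FDR between 0.608 and 0.906.

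The genes called at 4 d were followed in the IR64(AG1) and IR64 libraries of the other days, which are not among the 6 libraries of the 4 d contrast but were fitted in the same model. Of the 82 genes that rose at 4 d, 34 were also called higher at 2 d, 25 at 8 d and 20 at 14 d, where 0.623%, 1.57% and 0.126% of all tested genes were called higher. Of the 74 genes that fell, 42 were also called lower at 2 d, 43 at 8 d and 36 at 14 d, where 0.29%, 0.959% and 0.21% of all tested genes were. On all 3 other days 48 of the 156 were called in their 4 d direction (18 higher, 30 lower), 14 on 2 other days, 28 on 1, and 66 on none (43 higher, 23 lower). Of all tested genes, 50 (0.191%) were called in 1 direction on each of the other 3 days, and 48 of these were the ones also called at 4 d. In the first 400 tested genes of chromosome 2, 25 of the 33 called genes (75.8%) were called on all other days, against 23 of the other 123 (18.7%), and none of the 33 lacked a call on another day.

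**Figure D3:**
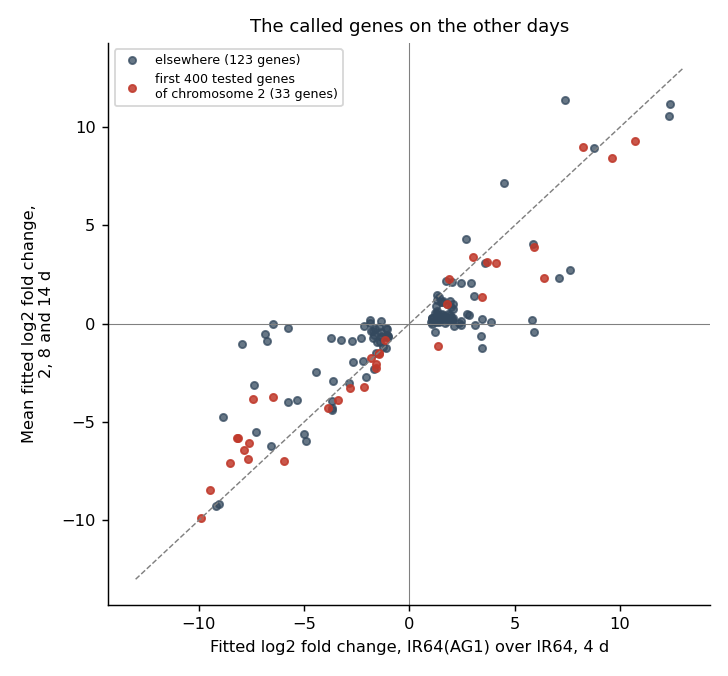
The mean log2 fold change of IR64(AG1) over IR64 at 2, 8 and 14 d (vertical axis) against that at 4 d (horizontal axis) for the 156 genes called at 4 d, each point a gene, with the 33 genes of the chromosome 2 stretch in red and the dashed line marking equal values. Points by the dashed line differ alike on the other days, and the cluster right of 0 beside the horizontal line holds genes that rose at 4 d with mean values near 0 on the other days.

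Some genes kept their difference on every day and others did not. The kinase phosphatase OS02G0151800 averaged 32.1 ± 4.45, 39.2 ± 1.79 and 40.2 ± 0.547 CPM in IR64(AG1) at 2, 8 and 14 d, against 85.5 ± 6.81, 110 ± 2.88 and 127 ± 10.9 CPM in IR64 (SD, n = 3 each). The aminotransferase OS05G0558400 averaged 69.7 ± 4.49, 54.9 ± 1.09 and 75.8 ± 6.59 CPM in IR64(AG1) and 19.5 ± 1.58, 14.2 ± 1.08 and 12.5 ± 3.18 CPM in IR64 on those days. Both genes were called on every day in the direction of 4 d. EXPB11 (OS02G0658800) averaged 0.870 ± 0.439 CPM in IR64(AG1) and 0.278 ± 0.414 CPM in IR64 at 2 d, and 36.0 ± 7.97 CPM in IR64(AG1) and 35.2 ± 11.1 CPM in IR64 at 8 d. At 14 d it averaged 25.2 ± 1.49 CPM in IR64(AG1) and 26.1 ± 4.39 CPM in IR64. Its lines thus lay apart at 4 d and overlapped at 8 and 14 d, and edgeR called neither of those days. The calmodulin-like OS01G0810300 averaged 7.21 ± 1.41 CPM in IR64(AG1) and 2.90 ± 0.359 CPM in IR64 at 2 d, when it was called higher, and 79.7 ± 1.90 CPM in IR64(AG1) and 72.0 ± 4.34 CPM in IR64 at 8 d, when it was not called.

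**Figure D4:**
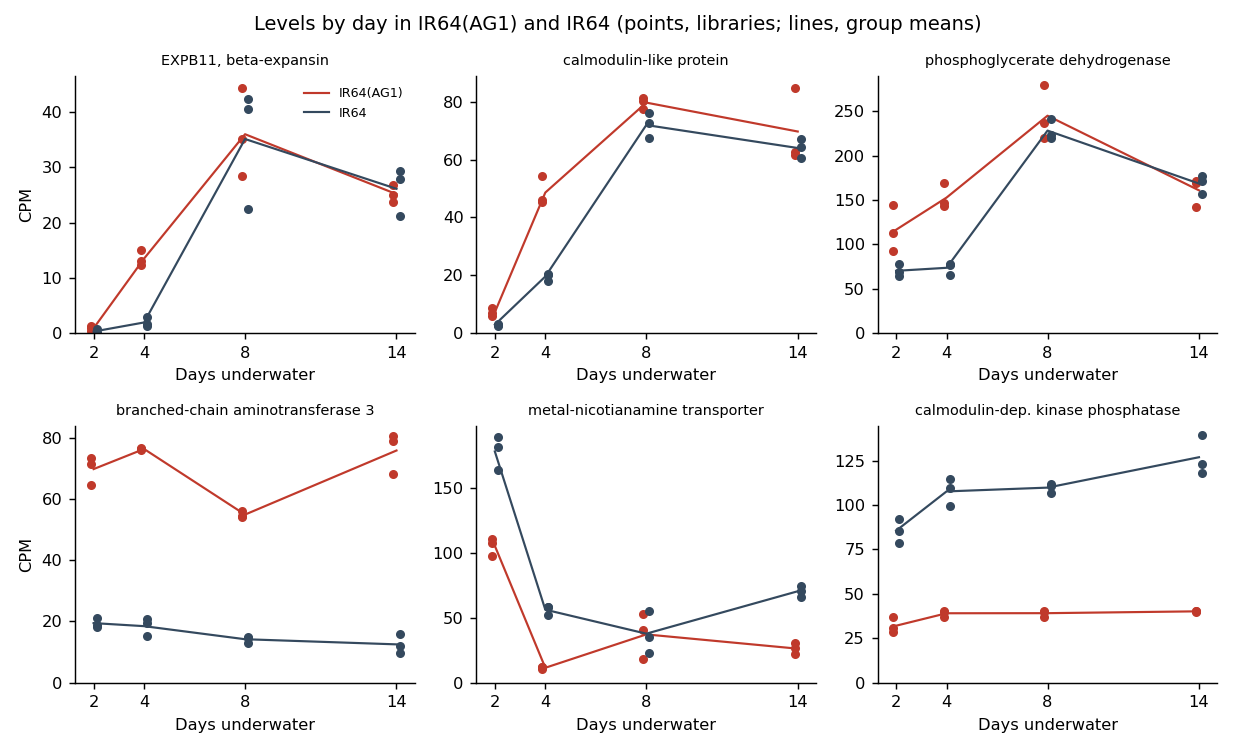
CPM of 6 genes in IR64(AG1) and IR64 against days underwater, with each point a library and lines joining the group means of 3 libraries. The upper genes differ between the lines at 4 d and lie close at 8 and 14 d (EXPB11 means of 36.0 CPM in IR64(AG1) and 35.2 CPM in IR64 at 8 d), whereas the aminotransferase and the kinase phosphatase differ on every day.

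The difference at 4 d was tested against the mean difference at 2, 8 and 14 d. Of 26180 genes, 6 (0.0229%) were called by edgeR's quasi-likelihood test, 3 in each direction (0.0115% each), and all 6 were among the 156. The test contains the same 4 d libraries that called the 156, so this overlap is not independent of their choice. At an unadjusted p under 0.05 there were 2052 genes, so a missing call does not show that the days had equal differences. EXPB11 (OS02G0658800) had a 4 d difference 2.40 ± 0.44 (SE, log2 scale) above that of the other days, with an FDR of 0.0116 by edgeR. The leucine-rich repeat gene OS04G0605300 was 1.67 above (FDR 0.00484 by edgeR), with levels of 45.7 ± 9.27 CPM in IR64(AG1) and 34.2 ± 11.1 CPM in IR64 at 8 d. OS03G0379300 and OS03G0736900 fell further at 4 d than on the other days, by 1.45 and 1.38 on the log2 scale. OS03G0736900 averaged 36.7 ± 5.71 CPM in IR64(AG1) and 34.4 ± 6.53 CPM in IR64 at 8 d. The NBS-LRR gene OS02G0118800 changed direction, with 8.90, 9.88 and 7.83 CPM in IR64(AG1) against 5.11, 3.08 and 2.14 CPM in IR64 at 4 d, and 0.359, 0.764 and 0.315 CPM in IR64(AG1) against 4.64, 4.78 and 4.71 CPM in IR64 at 14 d. It was called higher at 2 and 4 d and lower at 8 and 14 d, and the 4 d call was lost without any 1 of 4 libraries (edgeR FDR 0.0769 to 0.197).

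A separate pair of lines at 4 d differs at AG1 in the presence of SUB1 and shares no library with the first. Of the 82 genes that rose in IR64(AG1), 10 were called higher in IR64(AG1,SUB1) than in IR64(SUB1), beside 0.279% of all tested genes, and of the 74 that fell 26 were called lower, beside 0.584%. In either direction this pair called 0.863% of all tested genes. Without the second IR64(AG1,SUB1) library the total of 36 became 10, with the remaining library taken to vary like the other groups. In the chromosome 2 stretch 19 of 33 were called in this pair (57.6%), against 17 of 123 elsewhere (13.8%). The kinase phosphatase OS02G0151800 had 37.5 and 33.7 CPM in IR64(AG1,SUB1) against 96.2, 87.7 and 93.8 CPM in IR64(SUB1). The transporter OS02G0649900 had 11.2 and 14.2 CPM in IR64(AG1,SUB1) against 54.1, 59.7 and 73.5 CPM in IR64(SUB1). The leucine-rich repeat gene OS04G0605300 had 10.96 and 15.5 CPM in IR64(AG1,SUB1) against 2.86, 3.11 and 3.84 CPM in IR64(SUB1). The nodulin-like OS04G0538400 had 20.7 and 16.5 CPM in IR64(AG1,SUB1) against 4.36, 6.04 and 4.68 CPM in IR64(SUB1). All 4 genes were called in the same direction in both pairs of lines.

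Other genes did not. EXPB11 (OS02G0658800) had 4.10 and 3.19 CPM in IR64(AG1,SUB1), against 11.4, 8.80 and 9.49 CPM in IR64(SUB1), so that it was lower with AG1 in the presence of SUB1 and higher with AG1 in its absence. The difference between the effects was -4.31 on the log2 scale (FDR 8.26e-07 by edgeR's quasi-likelihood test of the interaction). The P450 gene OS05G0101600 was turned the other way, with 47.3 and 40.5 CPM in IR64(AG1,SUB1) and 15.6, 16.8 and 16.6 CPM in IR64(SUB1) (interaction 2.44). The aminotransferase OS05G0558400 had 70.1 and 69.5 CPM in IR64(AG1,SUB1) and 73.7, 80.5 and 81.0 CPM in IR64(SUB1), levels near those of IR64(AG1), so that IR64 alone was low (interaction -2.21). OS05G0349500 was likewise at 4.10 and 3.24 CPM in IR64(AG1,SUB1) and 2.96, 4.27 and 3.84 CPM in IR64(SUB1), and IR64 alone was high. The ankyrin gene OS01G0923600 had 38.0 and 42.2 CPM in IR64(AG1,SUB1) and 46.8, 43.3 and 44.8 CPM in IR64(SUB1), so that IR64(AG1) alone was low (interaction 2.06). Differences of this last kind separate 1 line from the other lines. Because each genotype is a separate line, none of the interactions given here can be told apart from other segments in which the lines differ.

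**Figure D5:**
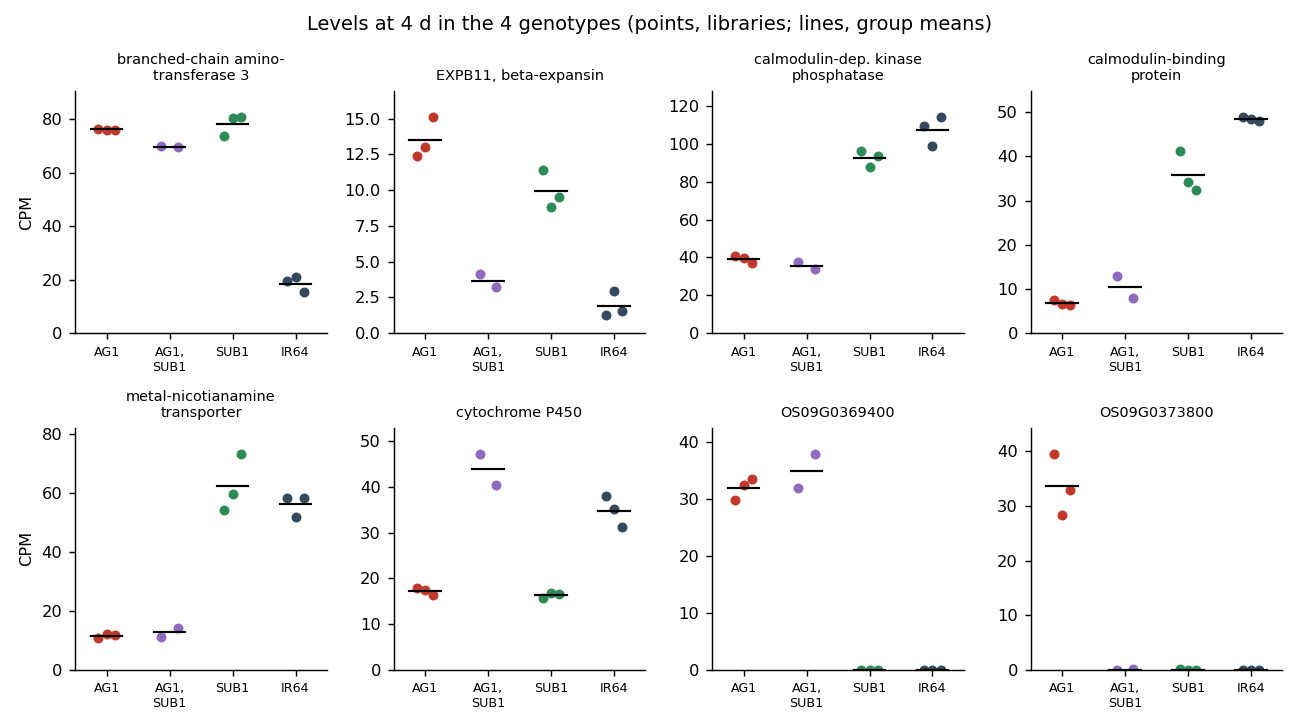
CPM at 4 d in IR64(AG1), IR64(AG1,SUB1), IR64(SUB1) and IR64 for 8 genes on linear axes, each point a library and each line a group mean. EXPB11 is highest in IR64(AG1) and IR64(SUB1), with 4.10 and 3.19 CPM in IR64(AG1,SUB1) and 1.29 to 2.92 CPM in IR64.

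Across all tested genes, the interaction of AG1 and SUB1 at 4 d was called for 168 (0.642%), 41 in the positive (0.157%) and 127 in the negative direction (0.485%), of which 38 were among the 156. The interaction contains the same 6 libraries that called the 156, so this share is not independent of their choice. The count was 77 without the second IR64(AG1,SUB1) library and 98 without the first IR64 library. The phosphoglycerate dehydrogenase OS08G0447000 had 125 and 117 CPM in IR64(AG1,SUB1) against 113, 130 and 112 CPM in IR64(SUB1), and the calmodulin-like OS01G0810300 had 27.3 and 31.1 CPM in IR64(AG1,SUB1) against 28.6, 31.7 and 23.5 CPM in IR64(SUB1). Both overlapped in this pair, with interactions of -1.02 and -1.24 on the log2 scale.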

How the data were processed

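RNA-seq libraries were strand-specific and poly(A)-selected. Per the labels and the study's methods, the authors trimmed reads, aligned them with TopHat 2.0.14 and Bowtie2 2.2.5 to Nipponbare IRGSP-1.0 plus SUB1A-1, and deposited whole-number counts per gene, not normalized, for 35677 genes. All columns matched a sample, so 0 were left unused. Groups come from the genotype and age labels. Library totals and CPM were computed from these counts. For CPM, the library size over the tested genes was multiplied by its TMM factor. At 4 d this factor was 0.853 to 0.864 in IR64(AG1) and 0.837 to 0.862 in IR64.

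All 45 libraries in 16 groups were fitted together in edgeR 4.0.16 (R 4.3.3) with filterByExpr, which left 26180 genes, TMM and the quasi-likelihood test. DESeq2 1.42.0, RLE size factors, no filter, the steps of the study (5 added counts and a likelihood ratio test), smaller sets of libraries, a replicate block and leaving out each library were alternatives. No fold is given against a group of 0 other than against a floor of 3 counts over the group (0.0596 CPM in IR64(AG1), 0.0686 CPM in IR64), and intervals and floors cover counting error only. The labels number replicates, described by the study as biological. In simulated counts for this contrast (24933 genes, 100 changed 4-fold and 100 changed 2-fold), 97 of the 4-fold and 46 of the 2-fold changes were called (62 of the 2-fold had an FDR under 0.05 by edgeR), with 3 false calls. The changed genes were drawn from those above a minimum mean count, and all other genes were equal in every group. The spread was set by a formula and not estimated from these libraries, so the rates for the real counts can differ.

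Genes were named by rule: of the described called genes whose 6 libraries separated by line, up to 12 by size of change in each direction, called members and the most abundant member of each list, up to 10 called also on other days, up to 10 whose 4 d difference departed from other days, and genes the study names. Described, non-overlapping called genes with at least 10 CPM in the higher group, and 3 genes on chromosome 9, were added after their values were seen. The genes and lists were chosen with earlier results of these data known. Descriptions came from the study's datasets, and the columns of the authors' own fold changes and p-values there were not used. Positions are the order of gene identifiers, and no sequence or coordinate was used here.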

Additional observations from a re-analysis of the deposited data

Results flagged for a closer look

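Tests of a difference between effects singled out the following genes. The 4 d difference of IR64(AG1) from IR64 departed from the mean of the other days (log2 scale, edgeR FDR under 0.05) for EXPB11 by 2.40, the NBS-LRR gene OS02G0118800 by 2.49, the leucine-rich repeat gene OS04G0605300 by 1.67 and the phosphoglycerate dehydrogenase OS08G0447000 by 0.80, all higher at 4 d. It departed downward for OS03G0379300 by -1.45, OS03G0736900 by -1.38 and RCc3 (OS02G0662000) by -6.33, a fitted value that rests on 1 count in IR64(AG1) at 4 d. RCc3 averaged 203 ± 45.6 CPM in IR64(AG1) and 284 ± 23.8 CPM in IR64 at 8 d (SD, n = 3 each).

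The effect of AG1 with SUB1 minus the effect without it at 4 d was negative for EXPB11 (-4.31), the DREPP gene OS01G0233000 (-2.01), CTP synthase OS01G0654100 (-1.54), the calmodulin-like OS01G0810300 (-1.24), cycloartenol synthase-like OS02G0140200 (-2.19), the zinc finger gene OS03G0596600 (-2.61), 3-ketoacyl-CoA synthase OS04G0116800 (-2.05), beta-glucanase OS05G0375400 (-2.32), the aminotransferase OS05G0558400 (-2.21), the silicon transporter OS06G0228200 (-3.05) and phosphoglycerate dehydrogenase OS08G0447000 (-1.02). It was positive for the ankyrin gene OS01G0923600 (2.06), the P450 gene OS05G0101600 (2.44) and the pleckstrin homology gene OS05G0349500 (2.66). For 6 more genes a group was at or near 0 counts, and the fitted value depends on the prior count: the cellulase-like OS01G0312800 (-6.36), the protein kinase OS02G0154200 (-6.83), the leucine-rich repeat gene OS02G0157000 (-5.82), OS02G0102800 with a pleckstrin homology domain (7.94), carbonyl reductase-like OS02G0640800 (6.75) and the peroxidase OS11G0112400 (8.50). The last 3 had no count in IR64(AG1) at 4 d. Causes of these differences were not tested.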

How the results depend on the processing

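DESeq2 called 266 genes (149 higher, 117 lower) in place of 156, 55 in place of 6 for 4 d against the other days, 305 in place of 168 for the interaction and 16 in place of 10 in the gene groups. The study's steps gave 26 in place of 6 for 4 d against the other days, the fit of only the 6 libraries gave 16 calls in the gene groups, and the fit of the 11 libraries of 4 d gave an interaction count of 263. The causes were not tested. Leaving out each library in turn gave 99 to 128 called genes, 45 to 70 higher, 51 to 65 lower, 60 to 72 also called at 2 d (76 with all libraries), 54 to 69 at 8 d (68), 45 to 54 at 14 d (56), 43 to 48 on all other days (48), 3 to 9 for 4 d against the other days, 10 to 35 also called with SUB1 (36), 77 to 169 for the interaction, and 5 to 8 calls in the gene groups. The fewest for 4 d against the other days, 3, were without the first IR64 library. None of the 60 named called genes changed direction under the alternatives that tested them (54 of them with only the 6 libraries), whereas 9 named genes that were not called changed sign on leaving out a library and 6 under the steps of the study. Of the 60 named called genes, 38 were called under all alternatives, 22 were lost without at least 1 library and 11 under another alternative. Same-numbered replicates deviated with correlations of 0.0062 to 0.0251 over all tested genes, and differently numbered ones with -0.0272 to 0.0154. The samples were therefore not treated as paired, though values over all genes, many of them scarce, could miss a weak pairing. The replicate block gave 153 genes (80 higher, 73 lower) and an interaction count of 192. With 3 libraries a group and the spread set in the simulation, 62 of 100 simulated 2-fold changes had an FDR under 0.05 by edgeR. Only 46 were called, since a 2-fold change lies on the threshold of 1 on the log2 scale.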

Other observations

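Several genes that differed between the lines at 4 d were at levels of another order later. Catalase isozyme A (OS02G0115700) averaged 98.4 ± 51.6 CPM in IR64(AG1) and 23.7 ± 13.5 CPM in IR64 at 8 d, and 1140 ± 105 CPM in IR64(AG1) and 1431 ± 129 CPM in IR64 at 14 d (SD, n = 3 each). The silicon influx transporter (OS06G0228200) averaged 19.4 ± 1.38 CPM in IR64(AG1) and 12.4 ± 2.69 CPM in IR64 at 8 d and 45.6 ± 8.02 CPM in IR64(AG1) and 52.0 ± 3.03 CPM in IR64 at 14 d. The gene without annotation OS09G0369400 averaged 389 ± 49.98 CPM in IR64(AG1) at 14 d, against 0.229 ± 0.135 CPM in IR64. OS09G0374900 averaged 0.385 ± 0.263 CPM in IR64(AG1) and 0.905 ± 0.315 CPM in IR64 at 14 d, far under its levels in both lines at 4 d.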
